A study of Mus musculus with 3 samples.

Results

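The cells described here carried digestive enzyme transcripts of pancreatic acinar cells together with transcripts of gastric-type ductal cells. They came from 3 mouse pancreatic tumours and were chosen by a gate on 13 genes. A cell was kept if it had 1000 or more unique molecular identifiers (UMIs, each counting 1 captured transcript) and 500 or more genes. It also needed at most 20% mitochondrial UMIs, 60% or more of its barcode's UMIs in its own library, and less than 10% of UMIs from the ribosomal RNA locus genes Gm42418, AY036118 and Gm26917. A kept cell was double-gated if Ctrb1, Clps, Pnliprp1, Cpa1, Prss2, Try4, Try5, Cel, Cela2a and Cela3b together made up 0.6% or more of its UMIs and Tff1, Tff2 and Lgals4 together 0.3% or more. The double-gated cells numbered 108 of 2425 kept cells. Cells past the acinar threshold alone (acinar-only, 806), past the gastric threshold alone (gastric-only, 932) and past neither (579) made up the rest.

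All 3 tumours grew orthotopically in the pancreas of NSG mice, which are immunodeficient. The transplanted tdTomato+ epithelial cells came from Msi2-Myc; R26-LSL-tdTomato donors 5 weeks after tamoxifen, and the series title gives the driver as Musashi2-CreER with MycT58A. EpCAM+ cells, that is epithelial cells, were sorted from tumours at the end stage. Every tumour carries the same labels, so the 3 form 1 group without an untreated or normal reference, and no tumour was assigned a subtype. The labels do not say whether the tumours share a donor, so the spread between them may be smaller than that between independent donors.

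Acinar cells make and store digestive proenzymes under the control of factors such as Ptf1a, Rbpjl and Nr5a2, whereas pancreatic ducts express keratins such as Krt19. In the injured mouse pancreas acinar cells can take on ductal features, which is known as acinar-to-ductal metaplasia, and pancreatic tumours of the classical type often express gastric mucosal genes such as trefoil factors. A pair of cells caught in 1 droplet, or RNA set free from broken cells, can also give 1 barcode both sets of transcripts, so values that bear on each are given beside the results.

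Promoters of the acinar gate genes are shown because Ptf1a, Rbpjl and an E-protein form the PTF1 complex, which binds an E-box beside a TTTCCC box, and transcripts of both factors were measured in the double-gated cells. RefSeq promoters (GRCm38.p6, 300 bases each) were matched for 9 of the 13 gate genes, 8 acinar and 1 gastric. CAGCTG and TTTCCC, each on either strand without overlap and at most 20 bases apart, occurred together in 2 of the 8 acinar promoters (Ctrb1 and Cpa1) and in 0 of 1 gastric promoter, against 0.691% of 32851 mouse promoters. The E-box letters were then widened to CAGCTG or CACCTG, after the sequences had been read, which added Cel (3 of 8 acinar promoters, against 1.52% of all promoters). By themselves, the widened E-box occurred in 32.9% of promoters and TTTCCC in 25.2%. Capitals mark a pair of the widened search, and Lgals4 is shown as the gastric promoter, which holds no such pair. A match describes letters in this window and is not evidence of binding.
Ctrb1, chr8:111690961-111691260, minus strand: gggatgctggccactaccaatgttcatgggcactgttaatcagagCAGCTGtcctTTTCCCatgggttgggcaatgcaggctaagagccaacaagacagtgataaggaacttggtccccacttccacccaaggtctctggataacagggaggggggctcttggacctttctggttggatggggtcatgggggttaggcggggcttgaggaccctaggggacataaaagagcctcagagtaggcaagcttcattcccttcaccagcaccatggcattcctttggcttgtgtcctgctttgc
Cpa1, chr6:30638968-30639267, plus strand: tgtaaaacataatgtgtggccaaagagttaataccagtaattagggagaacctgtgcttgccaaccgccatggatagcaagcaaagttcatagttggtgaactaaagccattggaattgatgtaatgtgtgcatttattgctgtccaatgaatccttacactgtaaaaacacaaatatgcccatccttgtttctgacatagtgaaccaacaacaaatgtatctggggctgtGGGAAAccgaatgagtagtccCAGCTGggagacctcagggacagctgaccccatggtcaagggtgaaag
Cel, chr2:28563354-28563653, minus strand: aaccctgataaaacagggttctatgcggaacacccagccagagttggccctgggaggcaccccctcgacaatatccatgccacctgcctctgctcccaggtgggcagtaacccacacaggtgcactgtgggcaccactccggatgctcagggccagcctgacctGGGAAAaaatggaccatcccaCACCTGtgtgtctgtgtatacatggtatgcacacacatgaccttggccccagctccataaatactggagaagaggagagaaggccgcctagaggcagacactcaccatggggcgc
Lgals4, chr7:28833544-28833843, plus strand: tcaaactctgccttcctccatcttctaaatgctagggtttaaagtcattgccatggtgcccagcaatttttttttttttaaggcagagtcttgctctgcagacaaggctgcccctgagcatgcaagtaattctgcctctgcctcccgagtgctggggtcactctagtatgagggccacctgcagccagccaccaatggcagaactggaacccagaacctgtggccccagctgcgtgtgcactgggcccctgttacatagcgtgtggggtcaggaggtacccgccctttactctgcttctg

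The libraries held 11502184, 9737397 and 16521484 UMIs for tumours 1, 2 and 3. All 2425 kept barcodes had 10 or more UMIs in another library too, although none was kept as a cell in more than 1 library. The double-gated cells had a median of 73.8%, 78.0% and 78.7% of their barcode's UMIs in their own library in tumours 1, 2 and 3, against 74.6%, 77.6% and 78.9% over all kept cells. Free RNA was read from barcodes with 10 to 100 UMIs (88682, 42475 and 65131 of them). Barcodes kept as a cell in another library were not excluded from this range, so free RNA can include their UMIs. Whether all of the free RNA came from broken cells was not tested. Its composition was unlike that of the cells in places: erythroid markers summed to 1771, 2590 and 3575 CPM (a gene's UMIs as a share of all UMIs in the sum, scaled to a common total) in free RNA and to 0 UMIs in the double-gated cells. Acinar-only and gastric-only cells held at most 0.454 and 0.922 CPM of the erythroid markers in any tumour. Fibroblast markers were likewise at 0 UMIs in all double-gated sums, against 640, 844 and 891 CPM in free RNA. The endothelial gene Egfl7 stood at 0, 0 and 17.4 CPM in the double-gated cells, against 487, 676 and 623 CPM in free RNA. Not every marker list differed in this way. Myeloid markers summed to 65.6, 0 and 78.5 CPM in double-gated cells (3, 0 and 18 UMIs), against 69.6, 106 and 89.6 CPM in free RNA. Lymphoid markers summed to 65.6, 0 and 56.7 CPM (3, 0 and 13 UMIs), against 24.0, 16.4 and 21.8 CPM in free RNA.

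Double-gated cells were present in every tumour, as the plot of gate values shows. They made up 2.08% of kept cells in tumour 1 (21 of 1012, exact Clopper-Pearson 95% interval 1.29 to 3.15%), 3.43% in tumour 2 (7 of 204, 1.39 to 6.94%) and 6.62% in tumour 3 (80 of 1209, 5.28 to 8.17%). The mean was 4.04% ± 2.33 (SD, n = 3 tumours). The intervals of tumours 1 and 3 did not overlap, that of tumour 2 overlapped both, and all cover counting error only. Of the cells past the acinar threshold, 7.47%, 17.1% and 13.5% also passed the gastric one in tumours 1, 2 and 3, and of those past the gastric threshold, 4.04%, 5.98% and 19.9% also passed the acinar one. Since 80 of 108 came from tumour 3, pooled values lean on that tumour. Without the ribosomal RNA locus limit the mean was 13.8%, and with both thresholds doubled it was 0.912%.

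**Figure D1:**
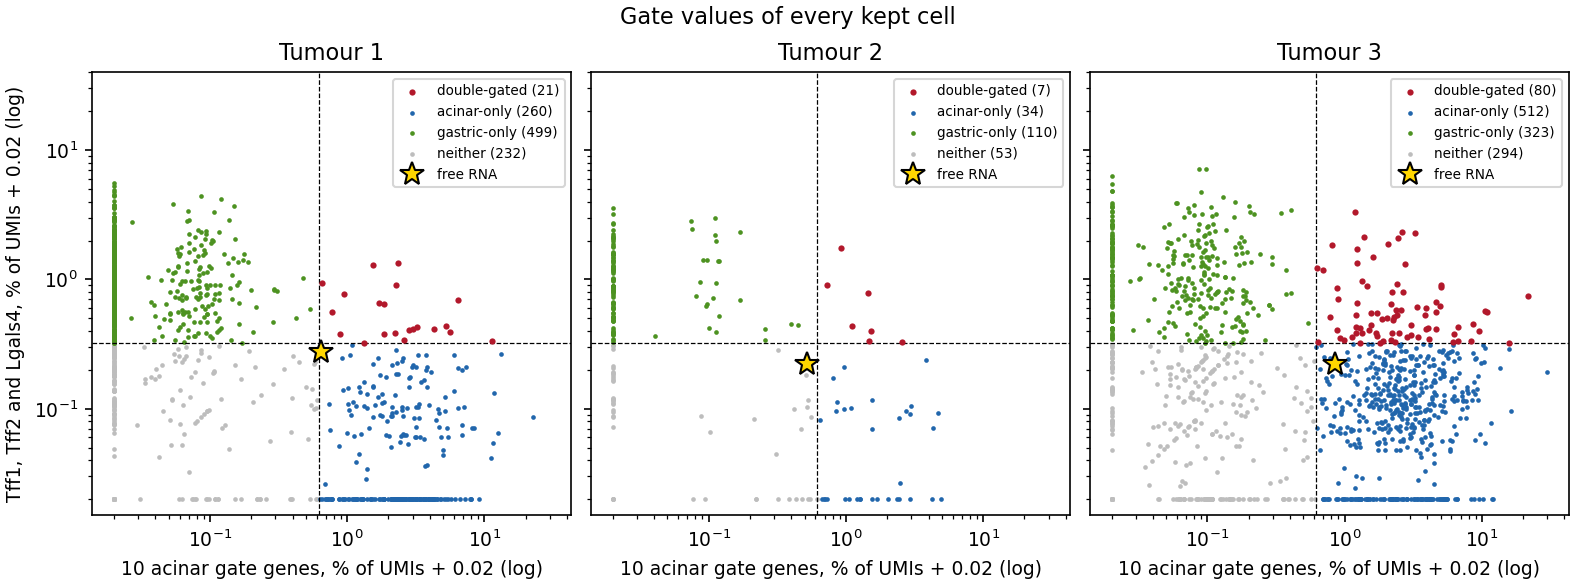
Acinar against gastric gate genes as percent of UMIs (both axes logarithmic) for each kept cell, by tumour; 0.02 is added so that cells at 0 can be drawn, dashed lines are the thresholds, counts are in the legend and the star is free RNA. The 21, 7 and 80 double-gated cells lie mostly just above the gastric threshold, and free RNA lies close to the point where the thresholds cross.

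In gate genes the double-gated cells were close to acinar-only cells in acinar content and below gastric-only cells in gastric content. Because these percentages chose the cells, they are given as a description. Acinar gate genes had a median of 2.19% of UMIs in double-gated cells, against 2.49% in acinar-only cells. Gastric gate genes had a median of 0.478% in double-gated cells, against 0.953% in gastric-only cells. Both medians were reached by 3 of 108 cells, and 52 of 108 lay below 1.5 times the gastric threshold. Just inside that threshold were cells at 0.3%, 0.301% and 0.302%, and just outside it cells at 0.299%, 0.297% and 0.296%. Between 0.2 and 0.3% gastric lay 85 cells past the acinar threshold, whereas 5 cells past the gastric threshold lay between 0.4 and 0.6% acinar. The gastric threshold therefore ran through a denser band of cells than the acinar threshold did.

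Free RNA itself held both sets of transcripts. Acinar gate genes made up 0.625%, 0.502% and 0.831% of free RNA in tumours 1, 2 and 3, and gastric gate genes 0.256%, 0.204% and 0.203%. The gastric threshold of 0.3% lay above free RNA in every tumour, and the acinar threshold of 0.6% did so in tumour 2. The gate thus largely fixed the first of the following counts, which are given as a description. Double-gated cells above the free RNA level of their tumour in both numbered 103 of 108. Above 2 times that level were 39, above 3 times 10, and above 5 times 0. Acinar-only cells had a median of 0.0621% gastric UMIs and gastric-only cells a median of 0% acinar UMIs, both below the free RNA level, with 255 of 806 acinar-only cells at 0 gastric UMIs and 526 of 932 gastric-only cells at 0 acinar UMIs.

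Tff2, a trefoil peptide of gastric mucous neck cells, led the gastric gate UMIs of double-gated cells in tumours 1 and 3, and Tff1 led in tumour 2 (53.5%, against 33.8% Tff2). Of the 2039 UMIs of all 3 tumours, 1715 of them from tumour 3, 32% were Tff1, 59.4% Tff2 and 8.58% Lgals4, the last encoding a galectin of digestive epithelia. In acinar-only cells the shares were 7.23% Tff1, 85.7% Tff2 and 7.09% Lgals4, in gastric-only cells 50.7%, 37.1% and 12.2%, and in free RNA 51.3%, 35.9% and 12.8%, in that gene order. Tff1 made up 37.5%, 53.5% and 30.3% of these UMIs in the double-gated cells of tumours 1, 2 and 3, against 20.1%, 6.06% and 5.21% in acinar-only and 54.6%, 60.2% and 45.8% in gastric-only cells. In each tumour the double-gated share lay between those of the single-gate classes. In 32 of the 108 cells Tff2 was the only gastric gate gene detected, and in 0 cells Tff1 was. Ctrb1, which encodes chymotrypsinogen B, was detected in 108 of 108 cells and made up 62.3%, 56.0% and 52.1% of acinar gate UMIs in double-gated cells, against 44.1%, 47.6% and 43.1% in acinar-only cells. These shares involve the gate genes and were not tested.

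**Figure D2:**
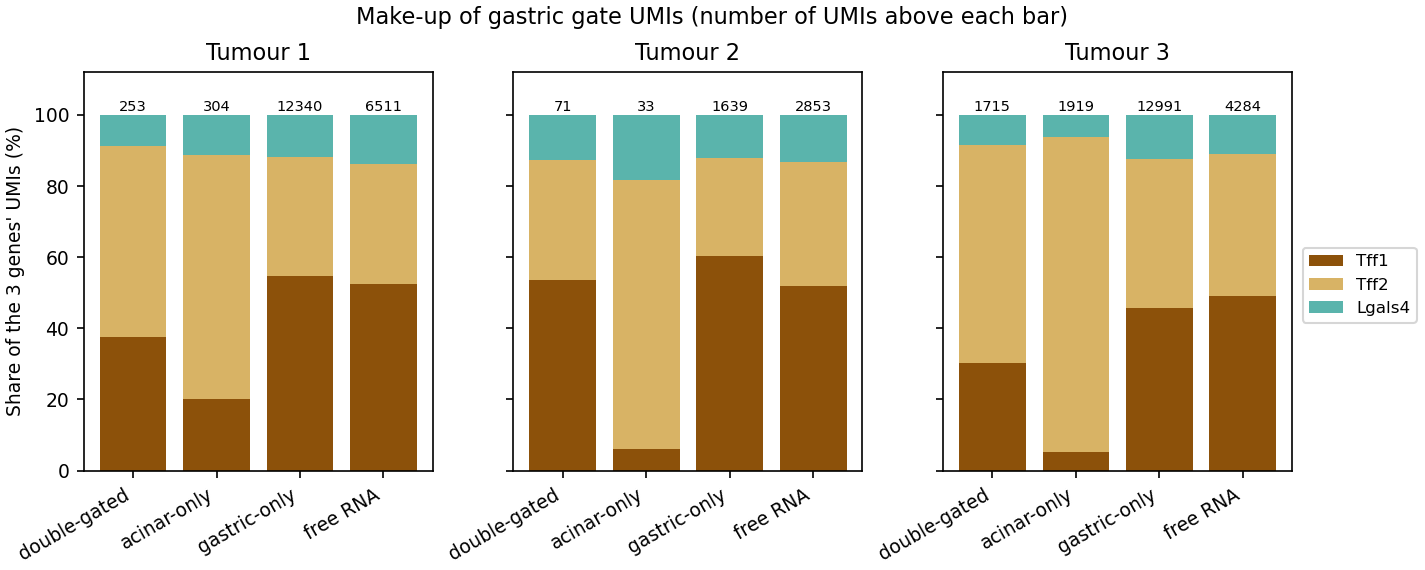
Share (%) of Tff1, Tff2 and Lgals4 among the UMIs of these 3 genes, per class and tumour, with the number of UMIs above each bar. Tff2 makes up 53.8%, 33.8% and 61.3% in double-gated cells, against 68.8%, 75.8% and 88.5% in acinar-only and 33.6%, 27.8% and 41.7% in gastric-only cells of tumours 1, 2 and 3.

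The 45 double-gated cells with no Tff1 UMI and the 63 with at least 1 differed in depth as well as in content. This division was made after the values were seen, and it is described without a test. Tff1 counts towards the gastric gate, and a cell with fewer UMIs is more likely to show none of it. Lower depth and lower gastric content in cells without Tff1 thus follow in part from the division itself. Median UMIs were 1590 in cells without Tff1 and 2360 in cells with it. Acinar gate genes had medians of 2.82% and 1.70%, and gastric gate genes 0.365% and 0.636%, in the same order. Agr2 stood at 26.7 CPM in cells without Tff1 and 188 CPM in cells with it in tumour 3, but at 161 and 0 CPM in tumour 1, where few UMIs were counted. Ctse, a gastric protease gene, stood at 40.1 and 324 CPM in tumour 3 and at 161 and 150 CPM in tumour 1. Of the cells without Tff1, 6 of 45 had a doublet score in the highest 5% of their tumour, and of those with Tff1, 25 of 63.

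The depth of double-gated cells relative to the single-gate classes differed by tumour. Median UMIs were 1900 in double-gated, 1754.5 in acinar-only and 1647 in gastric-only cells of tumour 1. In tumour 2 they were 1451, 1262.5 and 1246.5, and in tumour 3 they were 2180.5, 2445 and 1918, in the same class order. The double-gated median was thus the highest of the 3 in tumours 1 and 2 and lay between the others in tumour 3. Under 2000 UMIs had 57 of 108 double-gated cells. Above the 90th UMI percentile of their tumour were 2.78% of double-gated, 10.2% of acinar-only and 7.30% of gastric-only cells. Doublet scores were higher: 31 of 108 double-gated cells (28.7%) were in the highest 5% of their tumour, against 3.72% of acinar-only and 2.90% of gastric-only cells. Median scores were 0.107 in double-gated, 0.0612 in acinar-only and 0.0717 in gastric-only cells. The score is built from simulated pairs of cells, so a cell with both programs can score high whether or not it is a pair. Which of the high scores mark pairs was not tested. The caller marked 3 double-gated cells as doublets, all in tumour 1, and 6 cells in all, so it gives little hold on their number. Leaving out the highest 5% of scores lowered the mean share to 3.26%.

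**Figure D3:**
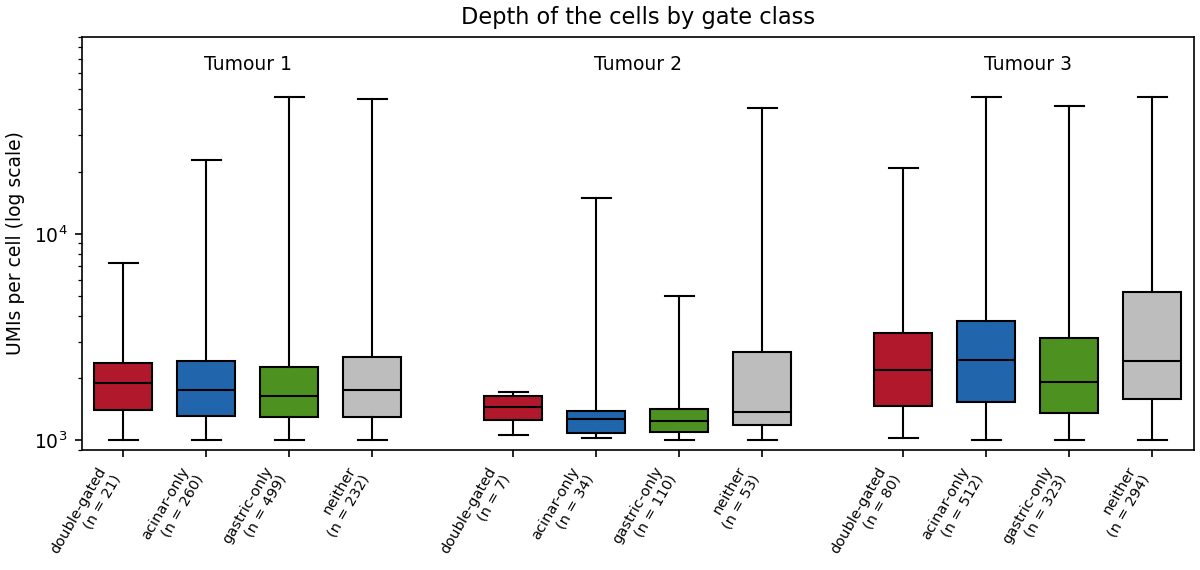
UMIs per cell (logarithmic axis) by class and tumour; boxes give the quartiles, lines the median and whiskers the lowest and highest cell. Median UMIs of double-gated cells are 1900, 1451 and 2180.5 in tumours 1, 2 and 3, against 1754.5, 1262.5 and 2445 in acinar-only and 1647, 1246.5 and 1918 in gastric-only cells, and their highest cell has 20946 UMIs.

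Genes outside the gate were compared on UMIs summed per class and tumour, which makes tumours the replicates. A sum needed 20 cells, so the 7 cells of tumour 2 were left out of the tests, and the double-gated class rested on tumour 1 (45699 UMIs) and tumour 3 (229258 UMIs). The spread was estimated from all classes in a joint fit, and most sums in it were not double-gated. The p-values therefore say little about the spread of double-gated cells between tumours. Of 8006 genes tested, 168 (2.1%) rose and 41 (0.512%) fell in double-gated against acinar-only cells, 2.61% in all, by edgeR's quasi-likelihood test (blocked by tumour, Benjamini-Hochberg adjusted p below 0.05). Against gastric-only cells 209 (2.61%) rose and 211 (2.64%) fell, 5.25% in all, and 10 of the 211 had 0 UMIs in both double-gated sums. Between acinar-only and gastric-only cells 1339 genes (16.7%) were higher and 1573 (19.6%) lower, 36.4% in all. The classes were cut on 13 genes, so any gene that follows these from cell to cell differs by construction, and the counts describe how far other genes went along. Of the 168 that rose against acinar-only cells, 157 were also lower in acinar-only than in gastric-only cells. Of the 209 that rose against gastric-only cells, 194 were also higher in acinar-only than in gastric-only cells. Leaving out a tumour lowered the number of genes tested, to 4857 without tumour 3 and 5298 without tumour 1, so counts of calls there have a smaller base. In those fits tumour 1 alone and tumour 3 alone gave the double-gated sum. Without tumour 3 the counts dropped to 13 against acinar-only and 66 against gastric-only cells, and without tumour 1 to 146 and 224. Of the called differences of single genes that could be fitted again, 45 of 74 no longer passed and 3 turned sign without tumour 3. Without tumour 1, 17 of 76 no longer passed, and without tumour 2, 3 of 78. Without the highest 5% of doublet scores 75 genes were called against acinar-only cells, a fit in which tumour 3 alone gave the double-gated sum.

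Acinar enzyme genes outside the gate were mostly higher than in gastric-only cells and tended to lie below the acinar-only level. Of 27 tested, 22 rose and 0 fell against gastric-only cells, whereas 0 rose and 7 fell against acinar-only cells, with medians of 4.16 and -0.81 on the log2 scale (-0.12 and -0.06 over all genes tested). Summed, the list stood at 19738, 10893 and 36230 CPM in double-gated cells, against 23646, 22012 and 38546 CPM in acinar-only and 4177, 4979 and 8898 CPM in gastric-only cells of tumours 1, 2 and 3. Free RNA stood at 5328, 5154 and 6061 CPM. Reg1, a secreted regenerating protein, made up most of these sums, with 14136, 6996 and 24222 CPM in double-gated cells, against 16153, 13612 and 24440 CPM in acinar-only cells, so the sums say little about the other genes. Cckar, the receptor for the secretagogue cholecystokinin, had 6, 0 and 22 UMIs in double-gated cells (131, 0 and 96.0 CPM), against 168, 186 and 145 CPM in acinar-only cells and 0 UMIs in every gastric-only sum. Over the 3 tumours together Cckar was at least 77.5-fold higher in double-gated than in gastric-only cells, taking 3 counts over the group as the floor. Free RNA held 22.0, 9.99 and 26.1 CPM of Cckar.

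The regenerating family member Reg2 and its relative Reg3a, secreted lectin-like proteins of stressed acinar cells, were likewise higher than in gastric-only cells. Reg2 stood at 3436, 1899 and 8885 CPM in double-gated cells, against 3286, 4517 and 9165 CPM in acinar-only and 36.5, 31.9 and 148 CPM in gastric-only cells. Against gastric-only cells it was 6.28 ± 0.30 higher on the log2 scale (SE, edgeR adjusted p = 4.87e-54). Reg3a was 6.25 ± 0.32 higher (edgeR adjusted p = 9.95e-51). Erp27, a disulfide isomerase family member of the endoplasmic reticulum, was 6.68 ± 0.67 higher (edgeR adjusted p = 1.30e-17), and Ifitm1, an interferon-induced membrane protein, 6.09 ± 0.46 higher (edgeR adjusted p = 9.06e-29). Against acinar-only cells the differences of Reg2 and Reg3a were 0.22 ± 0.25 and -0.05 ± 0.23 and did not pass the test. The 7 that fell against acinar-only cells were Cpb1, Serpini2, Try10, Prss3, Klk1, Ctrl and Spink1, which encode proteases, 2 protease inhibitors (Serpini2 and Spink1) and a kallikrein. Try10 and Prss3 belong to the trypsinogen family, whose near-identical copies can share reads, so their single values are uncertain.

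Acinar transcription factors were higher than in gastric-only cells. Ptf1a stood at 65.6, 0 and 65.4 CPM (3, 0 and 15 UMIs) in double-gated cells, against 53.8, 61.9 and 88.0 CPM in acinar-only and 0.890, 0 and 0.922 CPM in gastric-only cells. It was 5.83 ± 0.78 higher than in gastric-only cells on the log2 scale (edgeR adjusted p = 2.87e-10), and its difference from acinar-only cells, -0.21 ± 0.41, did not pass. Rbpjl was 5.09 ± 0.61 higher than in gastric-only cells (edgeR adjusted p = 7.60e-13). Of 6 factors tested, 4 rose against gastric-only cells (Ptf1a, Rbpjl, Nr5a2 and Bhlha15), and none passed in either direction against acinar-only cells. Free RNA held 19.7, 12.8 and 31.3 CPM of Ptf1a, less than the double-gated cells of tumours 1 and 3.

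Gastric-type genes outside the gate stood between the single-gate classes. Of 24 tested, 17 rose and 0 fell against acinar-only cells, and 0 rose and 15 fell against gastric-only cells, with medians of 2.75 and -1.47 on the log2 scale. Summed, they stood at 3348, 5197 and 5862 CPM in double-gated cells, against 1649, 1439 and 2947 CPM in acinar-only and 7294, 9486 and 11082 CPM in gastric-only cells. Free RNA held 2058, 1911 and 1792 CPM, below the double-gated cells in each tumour. Agr2, a disulfide isomerase needed for mucin folding, stood at 43.8, 99.9 and 135 CPM (2, 1 and 31 UMIs) in double-gated cells, against 1.63, 0 and 2.72 CPM in acinar-only and 92.6, 172 and 317 CPM in gastric-only cells. It was 5.601 ± 0.565 higher than in acinar-only cells on the log2 scale (SE, edgeR adjusted p = 5.91e-17) and differed by -0.998 ± 0.325 from gastric-only cells (edgeR adjusted p = 0.0453). Its levels in double-gated and acinar-only cells did not overlap, and in each tumour it was lower in double-gated than in gastric-only cells. Agr2 lies on chromosome 12 at 35992907 to 36004087 (mm10, GENCODE M21, plus strand).

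The other genes with the largest rises against acinar-only cells included a mucin and a claudin. Muc13, a membrane mucin, was 4.39 ± 0.78 higher and Cldn18, a gastric tight junction claudin, 3.79 ± 0.87 higher on the log2 scale (edgeR adjusted p = 8.03e-06 and 0.00182). Mgst2, a microsomal glutathione transferase, was 4.04 ± 0.63 higher, Il18, an epithelial cytokine, 3.73 ± 0.65 higher, and Scn8a, a sodium channel subunit, 3.62 ± 0.92 higher. Muc13 had 4, 0 and 8 UMIs in double-gated cells and Cldn18 had 4, 1 and 4, so these estimates rest on few transcripts. Scn8a lost its call without tumour 1 and without tumour 3, and its sign turned when both gate thresholds were doubled.

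Duct keratins were intermediate as well. Krt19 stood at 1729, 1499 and 2033 CPM in double-gated cells, against 702, 835 and 806 CPM in acinar-only and 3657, 3525 and 3796 CPM in gastric-only cells, and the 3 classes did not overlap. It differed by 1.26 ± 0.25 from acinar-only cells and by -1.14 ± 0.25 from gastric-only cells on the log2 scale (edgeR adjusted p = 1.09e-04 and 4.39e-04). Krt8, a keratin that pairs with Krt19 in simple epithelia, differed by 0.92 ± 0.25 from acinar-only and by -1.08 ± 0.25 from gastric-only cells. Of 20 duct epithelium genes, 9 rose and 0 fell against acinar-only cells, and 0 rose and 8 fell against gastric-only cells. Free RNA held 1067, 926 and 920 CPM of Krt19, below the double-gated cells in each tumour. Ductal and foregut factors moved less: Onecut2 and Elf3 were the 2 of 15 that rose against acinar-only cells (1.03 ± 0.31 and 1.11 ± 0.31), and 5 fell against gastric-only cells. Summed, the 20 factors listed stood at 853, 700 and 1248 CPM in double-gated cells, below the 1488, 1712 and 1634 CPM of free RNA. Foxa1, a foregut pioneer factor, was among the 5 at -4.49 ± 0.84, with 0 and 1 UMIs in double-gated cells of tumours 1 and 3. In tumour 2, which was not in the fit, its 2 UMIs made 200 CPM in double-gated cells, against 127 CPM in gastric-only cells.

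Genes known from pancreatic injury and metaplasia lay between the single-gate classes, at a summed level of 7571, 8595 and 8397 CPM in double-gated cells, against 1775, 2011 and 3188 CPM in acinar-only, 14380, 14547 and 16586 CPM in gastric-only cells and 6526, 6693 and 7141 CPM in free RNA. Of 19 tested, 10 rose and 0 fell against acinar-only cells, and 2 rose (Nes and Cyr61) and 11 fell against gastric-only cells. S100a6, a calcium-binding protein raised in ductal neoplasia, stood at 2954, 4297 and 3280 CPM in double-gated cells, against 464, 387 and 516 CPM in acinar-only and 8904, 8306 and 8196 CPM in gastric-only cells. It was 2.64 ± 0.27 higher than in acinar-only cells (edgeR adjusted p = 5.91e-17) and -1.78 ± 0.27 against gastric-only cells (edgeR adjusted p = 2.85e-08). Clu, a secreted chaperone induced in injured epithelium, stood at 2276, 999 and 1849 CPM in double-gated cells, against 463, 309 and 1055 CPM in acinar-only and 857, 1198 and 2074 CPM in gastric-only cells. It was 1.55 ± 0.24 higher than in acinar-only cells (edgeR adjusted p = 3.41e-07), and its difference of 0.26 ± 0.25 from gastric-only cells did not pass. Free RNA held 398, 397 and 509 CPM of Clu.

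**Figure D4:**
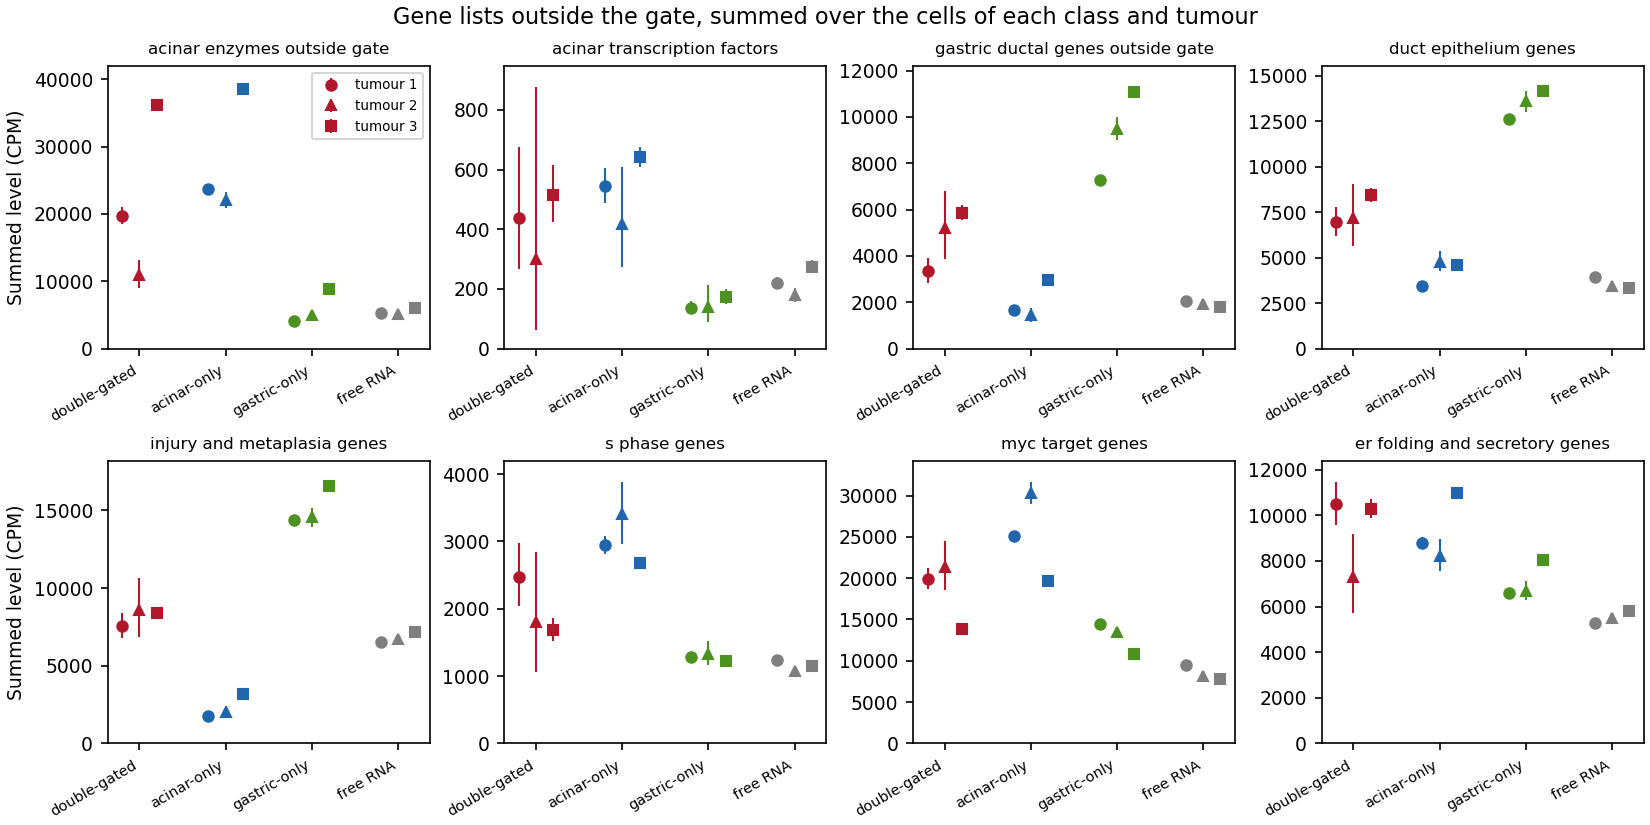
Summed level (CPM) of 8 gene lists per class and tumour, with exact Poisson 95% intervals for counting error; free RNA is at the right. Double-gated cells lie above gastric-only cells for enzymes outside the gate (19738, 10893 and 36230 CPM, of which Reg1 gives 14136, 6996 and 24222 CPM) and between the single-gate classes for gastric ductal genes (3348, 5197 and 5862 CPM) and injury genes.

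The genes with the largest falls in double-gated cells had few UMIs there. Against acinar-only cells Cxcl10, an interferon-induced chemokine, had 0, 0 and 2 UMIs in double-gated cells (0, 0 and 8.72 CPM), against 170, 0 and 90.8 CPM in acinar-only cells, a difference of -3.81 ± 0.69 (edgeR adjusted p = 1.28e-05). Rsad2, an antiviral gene, was at -2.97 ± 0.66, Trp53inp1, a p53-induced gene, at -3.07 ± 0.78, Znhit6, a ribonucleoprotein assembly factor, at -2.67 ± 0.79, and the unnamed locus Gm49016 at -4.07 ± 0.90. Each had 0 UMIs in the double-gated cells of tumour 1. Against gastric-only cells the cyclin Ccnd2 was at -4.52 ± 0.65, the sulfotransferase Sult1d1 at -4.21 ± 0.65, the peptide-amidating enzyme Pam at -3.84 ± 0.94, the serine protease Tmprss2 at -2.97 ± 0.52 and the signalling adaptor Azi2 at -2.82 ± 0.78. These also had 0 UMIs in double-gated cells of tumour 1.

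Summed S phase genes lay between the single-gate classes. They summed to 2473, 1799 and 1688 CPM in double-gated cells, against 2940, 3403 and 2686 CPM in acinar-only and 1289, 1332 and 1231 CPM in gastric-only cells. Of 42 tested, 0 rose and 1 fell against acinar-only cells (Hells, a replication-linked chromatin remodeller, at -1.65 ± 0.42), and 4 rose against gastric-only cells, among them the helicase subunit Mcm7. Of 52 mitosis genes, 0 rose and 3 fell against acinar-only cells, with a median of -0.72 on the log2 scale (-0.06 over all genes tested). Against gastric-only cells 1 of them rose, with a median of 0.01 (-0.12 over all genes tested). Of 35 MYC target genes, 2 fell against acinar-only cells, including the nucleolar protein gene Npm1 at -0.88 ± 0.25, and 3 rose against gastric-only cells. Of 32 secretory pathway genes, none passed against acinar-only cells and 5 rose against gastric-only cells, among them the chaperone Hspa5, at 2101, 600 and 885 CPM in double-gated cells, against 459, 478 and 656 CPM in gastric-only cells. None of 24 hypoxia and glycolysis genes passed in either comparison. Over all 8006 genes tested, 2.1% rose and 0.512% fell against acinar-only cells, and 2.61% rose and 2.64% fell against gastric-only cells.

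No gene lay beyond both single-gate classes by the joint test, which takes the larger of the 2 p-values where both differences have the same sign. It called 0 genes by edgeR's quasi-likelihood test and 0 by DESeq2 (0.0% called), with 172 and 69 genes at an unadjusted p under 0.05. Taken separately, 85 genes passed both comparisons, and 78 of these lay between the classes, higher against one and lower against the other. The other 7 went the same way in both, and they are named here after their values were seen: Reg3b, Krt14, Kctd14, Rabac1, Hp and Ckb were higher, and Gm26870 was lower. Reg3b, an antimicrobial lectin of the injured pancreas, stood at 5558, 2598 and 10364 CPM in double-gated cells, against 3543, 3759 and 5785 CPM in acinar-only and 1567, 1543 and 2974 CPM in gastric-only cells. It was above both classes in tumours 1 and 3 and not in tumour 2, by 0.82 ± 0.24 and 1.82 ± 0.24 on the log2 scale in the fit (joint edgeR adjusted p = 1). Its joint test passed in 3 of the alternatives, those that left out cells under 2000 UMIs, high doublet scores or high UMI counts. Krt14, a basal keratin, had 0, 0 and 17 UMIs in double-gated cells and so rests on tumour 3.

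**Figure D5:**
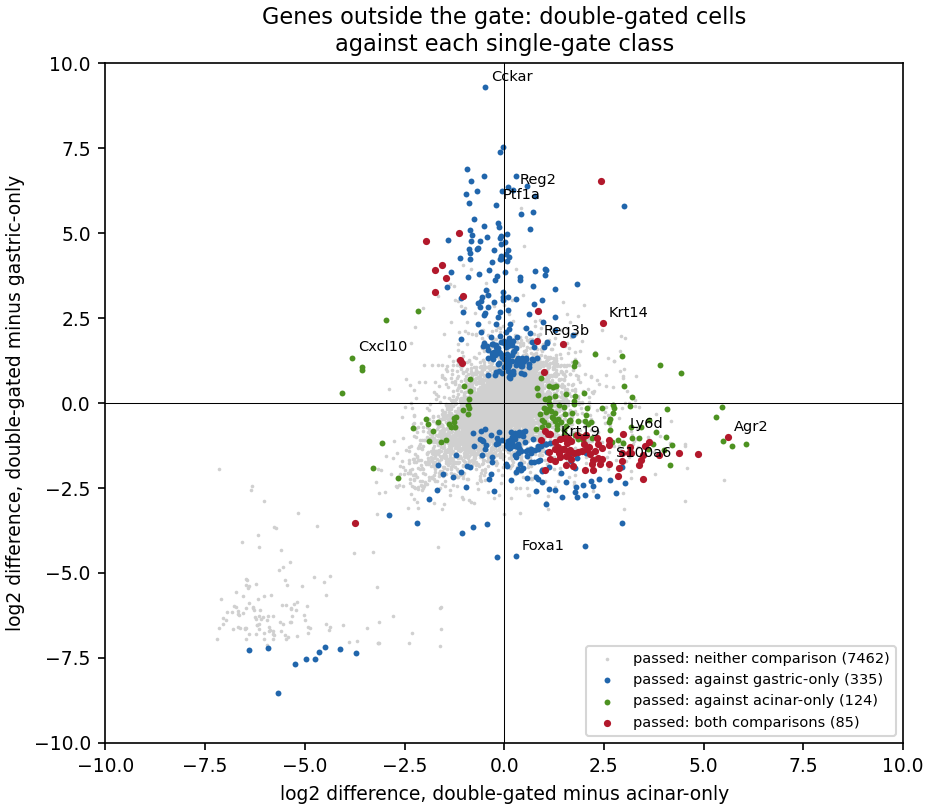
Log2 difference of double-gated cells from acinar-only (horizontal) and gastric-only cells (vertical) for 8006 genes outside the gate, coloured by the comparison passed. Of the 85 genes that passed both, 78 lie in the quadrants of opposite sign, and the cloud at the lower left is made of 142 genes with 0 UMIs in both double-gated sums, whose fitted differences have no set size.

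Summed over the genes that separate the single-gate classes, the double-gated cells were part of the way along. These genes were chosen by the difference between the same single-gate sums that set the end points. The 1573 genes higher in gastric-only cells summed to a level 33.1%, 43.0% and 28.9% of the way from acinar-only to gastric-only cells in tumours 1, 2 and 3. For the 1339 genes higher in acinar-only cells the position was 36.5%, 61.3% and 37.6%. By these sums, in which abundant genes weigh most, the double-gated cells were nearer to acinar-only cells in tumours 1 and 3 for both sets of genes. Single genes spread widely: of 812 gastric-side genes with 50 CPM or more, the median was 31.3% of the way with quartiles of 7.80 and 60.7%. Of 813 acinar-side genes the median was 52.8% with quartiles of 22.5 and 87.8%. Between the single-gate classes lay 573 of the 812 (70.6%) and 544 of the 813 (66.9%), and the rest lay outside them. The median acinar-side gene thus lay slightly nearer to gastric-only cells, unlike the sums of tumours 1 and 3.

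Within single cells of every class, transcripts of the acinar and the gastric lists outside the gate were also seen together. After each cell was thinned to 1000 UMIs, 78 of 108 double-gated cells (72.2%) had 3 or more UMIs of both the acinar and the gastric lists outside the gate, against 27.0% of acinar-only and 49.4% of gastric-only cells. Without thinning the shares were 89.8%, 55.5% and 64.1%. Of the cells past neither threshold, 34.9% met this mark with thinning and 56.8% without. By tumour the thinned shares were 61.9%, 85.7% and 73.8% in double-gated cells of tumours 1, 2 and 3. They were 20.8%, 8.82% and 31.4% in acinar-only and 39.5%, 46.4% and 65.6% in gastric-only cells. The exact 95% intervals of double-gated and gastric-only cells overlapped in each tumour (62.7 to 83.0% and 60.2 to 70.8% in tumour 3). The pooled gap between these classes thus depends in part on their unlike mix of tumours. Joint detection was most frequent in double-gated cells of each tumour but not particular to them. Reg1, which dominated the summed acinar list, stood at 3814, 4717 and 8415 CPM in gastric-only cells of tumours 1, 2 and 3. The whole acinar list summed to 4177, 4979 and 8898 CPM there, so most of its UMIs in gastric-only cells were Reg1. Joint detection in that class therefore says little about other acinar genes. The shares of cells were not computed without Reg1. Cckar or Chst2, which were nearly absent from gastric-only cells, was detected in 19.4% of thinned double-gated cells, against 20.7% of acinar-only and 0.107% of gastric-only cells (31.5%, 42.9% and 0.751% unthinned). Anxa10 or Prom1 was detected in 15.7%, against 6.33% of acinar-only and 46.1% of gastric-only cells (37.0%, 17.6% and 65.9% unthinned). By tumour the thinned share of the gastric pair was 28.6%, 28.6% and 11.2% in double-gated cells, against 9.62%, 0% and 5.08% in acinar-only and 46.7%, 43.6% and 46.1% in gastric-only cells. The counts behind the double-gated shares were 6 of 21, 2 of 7 and 9 of 80 cells, so the exact 95% intervals of tumours 1 and 2 (11.3 to 52.2% and 3.67 to 71.0%) held the gastric-only share and that of tumour 3 (5.28 to 20.3%) did not. Cckar and Chst2 were picked as nearly absent from gastric-only cells, which the gate also keeps low in acinar UMIs, so their share there does not measure free RNA. How much of either program came from free RNA or from cell pairs was not tested beyond the values given.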

How the data were processed

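RNA of EpCAM+ cells was measured with 10x droplet sequencing in 3 tumours, 1 library each. The authors' deposited matrices hold raw UMI counts for all barcodes, made with Cell Ranger 3.0.2 per the file headers (build mm10, per the submitters' processing notes). CPM and all tests were computed here. The members and lists were chosen with earlier results of these data known. Doublet scores came from scrublet in scanpy 1.11.5. UMIs were summed per tumour and class (20 cells or more) and fitted together with edgeR 4.0.16 in R 4.3.3 (TMM, filterByExpr, 5 residual degrees of freedom) with Benjamini-Hochberg adjustment at 0.05. The tumour was a block because each tumour gave every class. SE is the difference divided by the root of the F statistic. DESeq2 1.42.0 was an alternative. The edgeR step was checked on simulated counts. The 13 gate genes were left out of the counts of genes. Named genes are, per comparison and direction, up to 6 with the largest difference among those past the threshold, moving one way in each tumour with both sums and at 50 CPM or more in the higher class, and up to 4 most abundant members of each list. Other members named beside a count of list calls were chosen after their values were seen. Replicates are separate mice. Intervals (95%, exact Clopper-Pearson or Poisson) cover counting error only.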

Additional observations from a re-analysis of the deposited data

Results flagged for a closer look

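Barcodes left out of every comparison for their ribosomal RNA locus counts also passed both gates, at 36.28% in tumour 1 (152 of 419), 32.65% in tumour 2 (16 of 49) and 30.47% in tumour 3 (486 of 1595). These barcodes are outside every comparison, and the shares lie above the 2.08%, 3.43% and 6.62% of kept cells. In tumours 1, 2 and 3 such barcodes had median mitochondrial shares of 0.406%, 0.254% and 0.267% and median ribosomal RNA locus shares of 35.2%, 26.4% and 27.7%. Their acinar gate medians were 0.894%, 0.695% and 1.56%, and their gastric ones 0.436%, 0.557% and 0.392%.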

How the results depend on the processing

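The mean share of double-gated cells was 0.912% with both thresholds doubled, 1.38% with thresholds at 2 times free RNA and 13.8% without the ribosomal RNA locus limit; leaving out each tumour gave 2.75 to 5.02%. Against acinar-only cells 117 genes were called by DESeq2, 62 with no replicate block, 336 without the home library requirement and 75 without high doublet scores; leaving out each tumour gave 13 to 258. Against gastric-only cells the counts were 219 by DESeq2, 121 with no replicate block, 107 with doubled thresholds, 225 at 2000 UMIs and 143 at 2 times free RNA; leaving out each tumour gave 66 to 443. The joint test called 4 genes at 2000 UMIs, 1 without high doublet scores, 2 without high UMI counts and 1 at 2 times free RNA. In the fits with doubled thresholds, 2000 UMIs, high scores out, 2 times free RNA and called doublets out, tumour 3 alone gave the double-gated sum, and its spread was taken as that of the other classes. Genes tested ranged from 4857 to 9349 over the fits of this paragraph, so their counts of calls have unlike bases. A home library share of 90% left 0 double-gated cells and was not run.

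Signs turned for called genes with doubled thresholds (Scn8a -3.19 and Hp -5.95 against acinar-only, Mcm7 -0.10 and Hp -0.11 against gastric-only), without high doublet scores (Krt14 -0.21 against gastric-only) and at 2 times free RNA (Krt14 -0.24). Without tumour 3 they turned against gastric-only cells for Muc13 (0.13), Jund (-0.13) and Krt14 (-2.23), whose ranges over the left-out tumours were -2.10 to 0.13, -0.13 to 1.10 and -2.23 to 2.55. Differences that had not passed also turned. Against acinar-only cells these were Reg2 (-0.028 with doubled thresholds, -0.19 at 2000 UMIs, -0.016 without high UMI counts, -0.21 with tumour 2 kept, -0.063 to 0.48 over left-out tumours), Reg3a (0.051 with no replicate block, 0.12 with doubled thresholds, 0.32 without high doublet scores, 0.11 without called doublets, -0.22 to 0.31 over left-out tumours) and Ptf1a (0.16 without high UMI counts, -0.21 to 0.18 over left-out tumours). Against gastric-only cells they were Clu (-0.32 with doubled thresholds, -0.019 at 2000 UMIs, -0.30 without high doublet scores, -0.15 at 2 times free RNA, -0.093 without called doublets, -0.33 to 0.82 over left-out tumours) and Lcn2 (0.26 at 2000 UMIs, 0.22 at 2 times free RNA). The cause was not tested. Keeping tumour 2, leaving out called doublets and the widened E-box were chosen after seeing the data. Depth limits tumour 1, where 45699 UMIs leave many genes at 0.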
